A study of Mus musculus with 6 samples.

Results

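The RNA of a ligand and receptor family was followed in corneal keratocytes, the resident mesenchymal cells of the corneal stroma. The family has 5 genes: the ligands Gas6 and Protein S (Pros1) and the TAM receptors Tyro3, Axl and Mertk. They were taken by gene symbol, with 5 of the 17606 genes in the expression table matching and all 5 passing the filter on low counts. The family was chosen with its values in these libraries known, and the values that led to the choice were the read counts and TPM of the Ptch1-ablated against the control libraries. The levels and fold changes of the 5 genes are therefore descriptions, and no p-value is given for them.

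Keratocytes were sorted by flow cytometry from corneas of mice labelled as 10 weeks old, and 3 libraries of control mice and 3 of Ptch1-ablated mice were sequenced. Ptch1-ablated mice carried Prrx1-CreERT and floxed Ptch1 (Prrx1-CreERT;Ptch1 f/f), and both groups had received 3 doses of tamoxifen, labelled as treatment for 1 month. The labels call the control mice ctrl and do not say whether they carried Cre or floxed alleles. Ptch1 holds the Hedgehog signal transducer Smo inactive, so its deletion is used to switch on Hedgehog signaling, and the study asked how this changes the keratocyte transcriptome. The driver is a knock-in at Prrx1, a gene expressed in mesenchymal cells, so recombination is not limited to keratocytes by design. The floxed line had been backcrossed to C57BL/6, and the study used mice of both sexes without the labels giving the sex of a library. The labels do not say how many mice gave each library, and the study's methods call the 3 samples of a group biological replicates.

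Gas6 and Protein S are secreted proteins whose Gla domain, once modified by a vitamin K-dependent carboxylase, binds phosphatidylserine on the surface of dying cells, platelets and shed membrane. The other end of each ligand binds the receptor tyrosine kinases Tyro3, Axl and Mertk, so that the ligand forms a bridge between an exposed lipid and a receiving cell. Gas6 can engage all TAM receptors, and Protein S acts mainly on Tyro3 and Mertk and also circulates as an anticoagulant. In the eye the family is best known from the retinal pigment epithelium, where Mertk is needed for the uptake of shed photoreceptor outer segments.

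The stretches upstream of both ligand genes and of Axl, the most abundant receptor RNA of the family here, are shown because the groups differ in the activity of the Hedgehog pathway, whose Gli factors are known to bind GACCACCCA. The sequences are the 250 bases before the RefSeq start on the gene's own strand, read 5′ to 3′, in assembly GRCm38.p6. Capitals mark CCACCC, the inner letters of the Gli consensus, or its reverse complement GGGTGG. They are chr8:13494536-13494785 (minus strand) for Gas6, chr16:62854057-62854306 (plus strand) for Pros1 and chr7:25788734-25788983 (minus strand) for Axl.
Gas6: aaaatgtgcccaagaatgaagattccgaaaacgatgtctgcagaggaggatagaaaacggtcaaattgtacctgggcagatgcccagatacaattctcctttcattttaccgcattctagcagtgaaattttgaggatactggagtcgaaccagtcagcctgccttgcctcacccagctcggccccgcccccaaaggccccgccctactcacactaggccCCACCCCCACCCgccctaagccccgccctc
Pros1: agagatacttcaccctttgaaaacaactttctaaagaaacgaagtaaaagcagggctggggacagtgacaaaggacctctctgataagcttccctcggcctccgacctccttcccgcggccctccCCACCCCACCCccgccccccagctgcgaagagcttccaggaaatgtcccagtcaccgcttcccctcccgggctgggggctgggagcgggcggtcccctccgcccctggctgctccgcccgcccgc
Axl: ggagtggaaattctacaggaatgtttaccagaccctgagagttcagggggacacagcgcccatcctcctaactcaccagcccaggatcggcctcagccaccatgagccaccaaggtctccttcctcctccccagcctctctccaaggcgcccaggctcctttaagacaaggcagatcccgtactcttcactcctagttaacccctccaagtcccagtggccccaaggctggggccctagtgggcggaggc
The whole GACCACCCA, searched on both strands, was found in 74 of 32851 such windows of all genes (0.225%) and in none of the 5 genes. CCACCC was found on either strand in 28.1% of the windows, with 2 matches each for Gas6 and Pros1, 1 for Mertk and 0 for Axl and Tyro3. In Pros1 the 2 matches share letters. The GC box GGGCGG, found in 32.7% of the windows, was matched 4 times in Gas6, 5 times in Pros1, once in Axl and 3 times each in Mertk and Tyro3. A match describes the letters of the window and does not show that a factor binds there.

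Activity of the pathway was read first from its own genes. Total Ptch1 counts were 172, 104 and 369 in control libraries 1 to 3 and 4348, 5194 and 6230 in ablated libraries 1 to 3. A gene total does not resolve the floxed exons, so it does not check the deletion. Gli1, a transcription factor induced by the pathway, had 1, 20 and 36 counts in controls and 3022, 3042 and 3098 in ablated libraries. Hhip, an inhibitor induced with it, had 12, 25 and 31 counts against 23979, 26893 and 26452. Library totals were 20258439 to 24788063 counts, and a count of 0 is compatible with up to 3 counts, or 0.121 to 0.158 CPM (counts per 1000000 of the TMM-scaled library total), for counting error only.

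Gas6 was the member whose RNA differed most between the groups. Its level was 44.7, 43.2 and 35.0 TPM (transcripts per 1000000, a unit that corrects for gene length) in control libraries 1 to 3. In ablated libraries 1 to 3 it was 918.9, 827.1 and 742.6 TPM. Every ablated library was far above every control library, and the spread within each group was small beside the gap. The mean was 41.0 ± 5.23 TPM and 829.6 ± 88.2 TPM in the control and the ablated group (SD, n = 3 each). The counts behind these levels were 1170, 982 and 923 in controls and 22329, 18815 and 19667 in ablated libraries. The fitted log2 fold change, ablated over control, was 4.13 ± 0.16 (SE, edgeR), a 17.5-fold difference. It lay between 4.01 and 4.20 when any 1 library was left out. Ranked by TPM among all 17606 genes, Gas6 stood at place 3161 to 3934 in controls and at place 124 to 154 in ablated libraries. In the reference annotation (GENCODE M21, assembly GRCm38) Gas6 overlaps Tmem255b on the opposite strand over 3100 bases. Tmem255b had 127 to 287 counts in controls and 510 to 850 in ablated libraries, below the Gas6 count in each library.

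Pros1, which encodes Protein S, was also higher in every ablated library, by a much smaller margin. Its level was 49.5, 84.4 and 97.0 TPM in control libraries 1 to 3 and 123.9, 126.7 and 160.6 TPM in ablated libraries 1 to 3. Control library 1 was the lowest, and the controls had a wide range. Means were 77.0 ± 24.6 TPM and 137.1 ± 20.4 TPM (SD, n = 3 each). The log2 fold change was 0.63 ± 0.23 (SE, edgeR), a 1.55-fold difference, from counts of 1685, 2496 and 3326 in controls and 3912, 3749 and 5527 in ablated libraries. The log2 fold change was 0.40 without control library 1, 0.81 without control library 3 and 0.46 without ablated library 3.

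Gas6 and Pros1 were the 2 of the 5 genes whose groups did not overlap on the CPM scale, both higher in ablated libraries. Of all 13888 genes tested, 14.1% were higher without overlap and 13.3% lower without overlap. Because the genes were chosen on this contrast, nothing is read from that comparison. For Pros1 the highest control library was at 146 CPM and the lowest ablated library at 159 CPM.

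**Figure D1:**
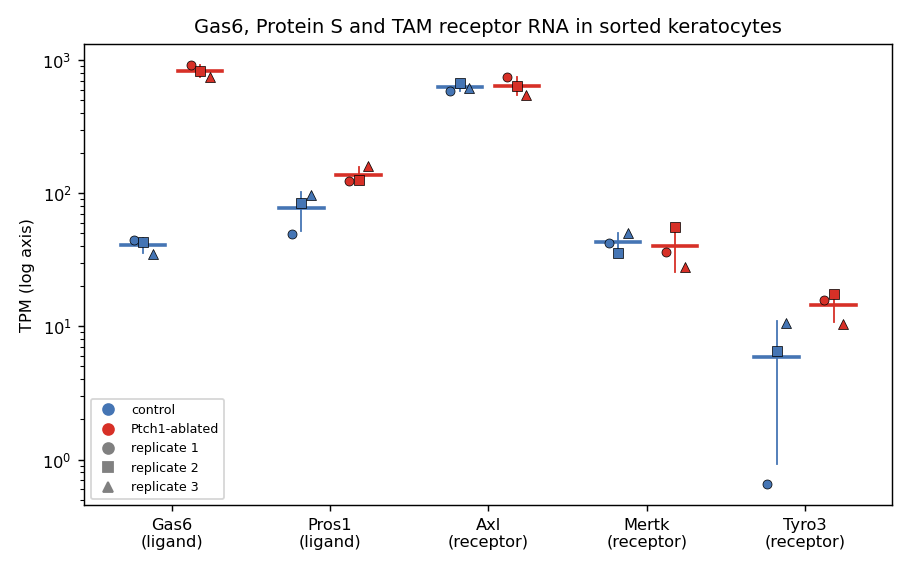
RNA levels of Gas6, Pros1, Axl, Mertk and Tyro3 in TPM (log axis) in the 3 control and 3 Ptch1-ablated libraries; points are libraries and horizontal bars are group means and vertical bars the SD. Gas6 has a mean of 41.0 TPM in controls and 829.6 TPM in ablated libraries, Pros1 points separate narrowly, and the points of the 3 receptors overlap between the groups.

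Axl was the most abundant receptor RNA of the family in every library and had similar levels in both groups. Its level was 589.2, 673.1 and 616.0 TPM in control libraries 1 to 3 and 743.9, 634.7 and 547.7 TPM in ablated libraries 1 to 3. The groups overlapped, with the highest and the lowest library both among the ablated. Means were 626.1 ± 42.8 TPM and 642.1 ± 98.3 TPM (SD, n = 3 each). The log2 fold change was −0.17 ± 0.13 (SE, edgeR), and stayed below 0 in every other fit of the counts, reaching −0.0076 with scaling by library totals alone. By limma on log2(TPM + 1), which differs in unit and in model, it was 0.027. The counts were 25651, 25658 and 27175 in controls and 30177, 24180 and 24361 in ablated libraries.

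Mertk, the receptor of the family that is known best for phagocytosis, was at a far lower level than Axl. It had 42.2, 35.5 and 50.6 TPM in control libraries 1 to 3 and 36.4, 56.2 and 28.1 TPM in ablated libraries 1 to 3. Ablated libraries held both the highest and the lowest value, so the groups overlapped fully. The log2 fold change was −0.25 ± 0.23 (SE, edgeR), at −0.53 without ablated library 2 and −0.08 without ablated library 3. The estimated counts of Mertk were not whole numbers, which RSEM gives where it divides reads that match more than 1 gene. Gm14011, on the opposite strand, and Gm23172, on the same strand, overlap Mertk in the reference annotation and have no counts here.

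Tyro3 was the least abundant member. Control libraries 1 to 3 had 0.65, 6.52 and 10.6 TPM from 27, 226 and 423 counts. Ablated libraries 1 to 3 had 15.7, 17.6 and 10.4 TPM from 568, 602 and 406 counts. Control library 1 was far below all others, and control library 3 lay within the range of the ablated libraries. The log2 fold change was 1.06 ± 0.64 (SE, edgeR), so that its error was large beside its size. It fell to 0.53 without control library 1 and was 1.75 without control library 3.

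By TPM the order of the means in controls was Axl, Pros1, Mertk, Gas6 and Tyro3. Pros1 and Mertk overlapped there (49.5 to 97.0 against 35.5 to 50.6 TPM), as did Mertk and Gas6, while Axl lay above and Tyro3 below all others. In ablated libraries the order was Gas6, Axl, Pros1, Mertk and Tyro3. The ranges of Gas6 and Axl met there at 742.6 and 743.9 TPM, and the ranges of the other neighbours were apart.

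Ratios within a library put the ligands beside the receptors. Gas6 TPM per Axl TPM was 0.0759, 0.0641 and 0.0568 in control libraries 1 to 3, so that Axl stood 13.2-fold, 15.6-fold and 17.6-fold above Gas6. In ablated libraries 1 to 3 the ratio was 1.24, 1.30 and 1.36, with Gas6 above Axl in each. Gas6 TPM per Pros1 TPM was 0.903, 0.511 and 0.361 in controls and 7.42, 6.53 and 4.62 in ablated libraries. Pros1 was thus the larger ligand RNA in all 3 controls and Gas6 in all 3 ablated libraries. Gas6 made up 35.9% ± 10.6 of the summed ligand TPM in the control group and 85.7% ± 3.08 in the ablated group (SD over 3 libraries).

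Summed over both ligands, TPM was 94.3, 127.6 and 132.0 in control libraries 1 to 3 and 1043, 953.8 and 903.2 in ablated libraries 1 to 3. Summed over the 3 receptors it was 632.1, 715.1 and 677.3 TPM in controls and 795.9, 708.4 and 586.2 TPM in ablated libraries, with the groups overlapping. Summed ligand TPM per summed receptor TPM was 0.149 to 0.195 in controls and 1.31 to 1.54 in ablated libraries. The makeup of the receptor RNA differed less. Axl held 92.8% ± 1.63 of receptor TPM in controls and 92.2% ± 2.22 in ablated libraries, and Mertk 6.37% ± 1.29 and 5.76% ± 1.88. Tyro3 held 0.860% ± 0.733 and 2.07% ± 0.366 (SD, n = 3 each throughout). These are RNA ratios, and protein, receptor cleavage and carboxylation of the ligands were not measured.

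**Figure D2:**
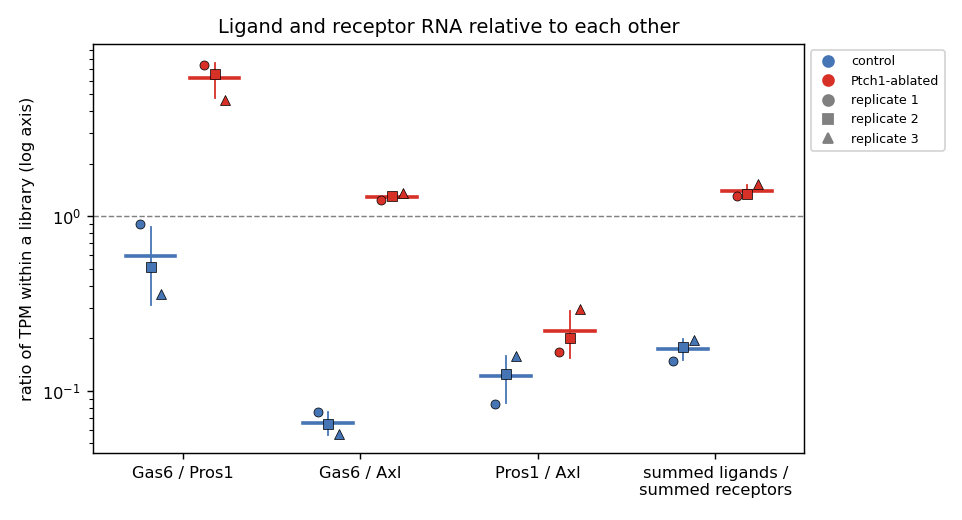
TPM ratios within each library (log axis) of Gas6 to Pros1, Gas6 to Axl, Pros1 to Axl and summed ligands to summed receptors; points are libraries, horizontal bars group means, vertical bars the SD, and the dashed line marks a ratio of 1. Gas6 per Axl and ligands per receptors lie below 1 in all controls and above 1 in all ablated libraries.

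Genes with the profile most like each member were named by the root-mean-square (RMS) difference of centred log2(CPM + 0.5) over the 6 libraries, among 10822 genes with a mean of at least 5 CPM. For Gas6 these were Mpped2 (RMS 0.181), Fbln1 (0.184) and Thy1 (0.222). Fbln1, an extracellular matrix glycoprotein, had 13.5 ± 2.64 TPM in controls and 247.4 ± 41.6 TPM in ablated libraries. Thy1, a surface glycoprotein widely used to mark fibroblasts and mesenchymal stem cells, had 1.80 ± 0.27 and 64.9 ± 4.65 TPM (SD, n = 3 each). For Pros1 they were Cdca4 (RMS 0.0885), Ier5 (0.0915) and Zfp386 (0.0941), and for Axl they included Igsf8 (0.0312) and the integrin subunit Itgav (0.0333). For Mertk they were Mocs1 (0.0519), Wipf2 (0.0865) and 2210408I21Rik (0.0943). For Tyro3 they were Miga1 (0.179), Cdca7 (0.193) and Cep152 (0.225), and Cdca7 and Cep152 were listed at 0 TPM in control library 1, the library in which Tyro3 was lowest.

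Markers of the sorted cells and of their neighbours in the tissue were set beside these levels. Keratocyte markers (Kera, Lum, Aldh3a1, Aldh1a1, Tkt and Cd34) summed to 61245 to 64888 TPM in controls and 42483 to 47013 TPM in ablated libraries, and 5 of 6 were lower. The vascular endothelium list summed to 338.7 to 458.1 TPM in controls and 576.9 to 650.9 TPM in ablated libraries, with 4 of 8 genes higher (Cdh5, Emcn, Pecam1 and Tie1). Kdr, the most abundant gene of that list, went the other way, with means of 194.5 TPM in controls and 170.9 TPM in ablated libraries. Its log2 fold change was −0.40 ± 0.14 (SE) and did not pass (edgeR adjusted p = 0.11). Cldn5, Egfl7 and Tek had positive log2 fold changes that did not pass. The mural cell list summed to 474.0 to 539.2 TPM and 910.1 to 974.0 TPM, with 4 of 8 higher (Acta2, Kcnj8, Notch3 and Rgs5). Pdgfrb, the most abundant gene of that list, had a log2 fold change of 0.11 and did not pass (edgeR adjusted p = 0.73). The study used Acta2 as a fibroblast marker. Calls are at an edgeR adjusted p (Benjamini-Hochberg over all 13888 genes tested) of at most 0.05. By this rule 4.68% of all genes tested were higher and 3.80% lower. The sums of the vascular endothelium and mural cell lists differed in the same direction as Gas6 and Pros1. The keratocyte sum differed in the opposite direction, and the part of these cells in the result was not tested. In bulk samples fewer cells of a type and less RNA per cell cannot be told apart.

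The macrophage and leukocyte list, whose cells are a known source of Axl and Mertk, summed to 1973 to 2086 TPM in controls and 1885 to 2429 TPM in ablated libraries. Of its 12 genes 1 was higher (Itgam). The Schwann cell list summed to 628.7 to 666.6 TPM and 737.4 to 811.8 TPM. The corneal epithelium list was at 50.8 to 89.5 TPM in controls and 3.78 to 9.16 TPM in ablated libraries. Of its 6 tested genes 3 were lower (Krt5, Krt14 and Krt15) and 1 was higher (Krt12). Krt12 was at 0 in all controls and had 21, 49 and 52 counts in ablated libraries 1 to 3. Melanocyte markers summed to 7.17 to 12.8 TPM and 9.09 to 9.95 TPM, with Dct at 0 in all ablated libraries. Corneal endothelium markers summed to 322.7 to 376.5 TPM and 241.1 to 423.9 TPM, mostly from Col8a2 (means 340.0 and 303.1 TPM). Slc4a11 of that list had 0.70, 6.08 and 3.13 TPM in controls and 17.1, 12.7 and 19.9 TPM in ablated libraries. Its log2 fold change of 2.12 ± 0.61 (SE) did not pass (edgeR adjusted p = 0.054). Cdh2, at 0.77, did not pass either (edgeR adjusted p = 0.35). The sorted samples thus held RNA of genes used as markers of other cell types in both groups. Pmp22 made up much of the Schwann cell sum, at means of 499.6 TPM in controls and 549.8 TPM in ablated libraries. Pdgfrb and Acta2 made up much of the mural cell sum (265.4 and 83.4 TPM in controls, 333.7 and 249.4 TPM in ablated libraries). RNA of such genes from keratocytes and from other cells cannot be told apart in bulk samples. The part of other cell types in the levels of the 5 genes was not tested.

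**Figure D3:**
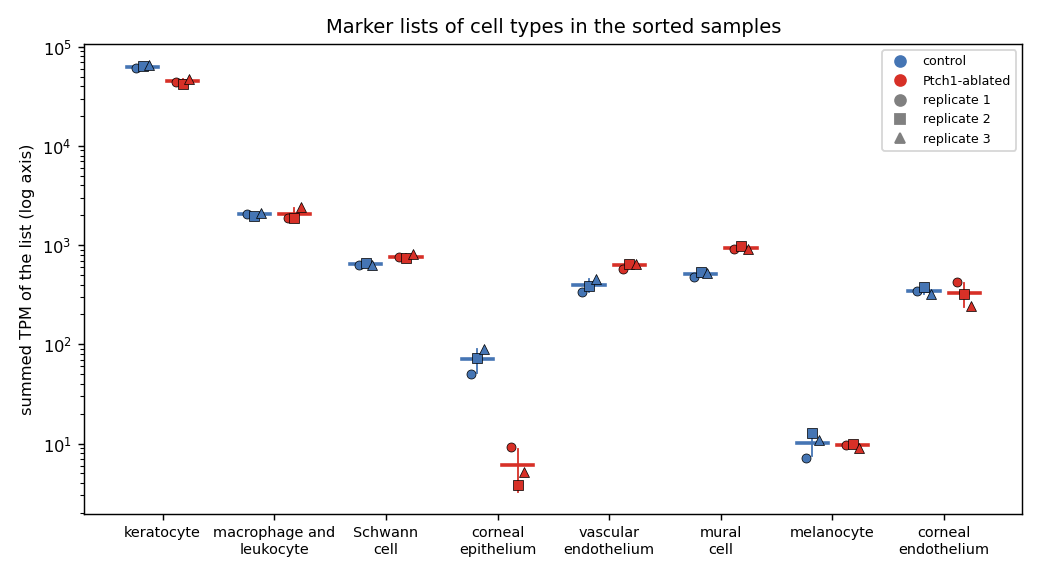
Summed TPM (log axis) of 8 marker lists in each library; points are libraries and horizontal bars group means and vertical bars the SD over 3 libraries. The keratocyte and corneal epithelium lists are lower and the vascular endothelium, mural and Schwann cell lists higher in every ablated library, while the macrophage and leukocyte list overlaps between the groups.

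The genes around the family were read from 9 lists written from their textbook roles. The lists were chosen with earlier results of these data known, so the share of their genes that passed is a description. Of 102 listed genes, 95 were in the table and 84 were tested, and 11 of the tested genes (13.1%) had an edgeR adjusted p within 0.05, 7 higher and 4 lower in ablated libraries. Over all 13888 genes 8.48% passed, 4.68% higher (650) and 3.80% lower (528). With scaling by library totals alone the split over all genes was 1024 higher and 386 lower, and the median log2 fold change of all genes was 0.17. The median log2 fold change was 0.21 over the listed genes and 0.0046 over all genes tested.

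The list of the vitamin K cycle, which prepares both ligands, and of maturation held 2 falls and no rise among 8 tested genes. Its median log2 fold change was −0.32. The list also includes Calu and Furin, and it is called the vitamin K cycle below. Vkorc1, the reductase that recycles vitamin K and is the target of warfarin, had 541.5, 476.1 and 370.3 TPM in control libraries 1 to 3 and 227.5, 285.0 and 309.3 TPM in ablated libraries 1 to 3. It fell by 0.98 ± 0.20 on the log2 scale (SE, edgeR adjusted p = 0.0090). Ggcx, the carboxylase that modifies Gla domains, had 125.9, 185.1 and 151.3 TPM in controls and 108.2, 103.7 and 90.6 TPM in ablated libraries. It fell by 0.79 ± 0.16 (edgeR adjusted p = 0.0097). In both genes every ablated library lay below every control. The most abundant listed genes that did not pass were Calu, a reticular calcium-binding protein that inhibits the carboxylase (log2 fold change 0.0027, 527.5 and 611.0 TPM), and Nqo1, a quinone reductase (−0.0059). For Ggcx the adjusted p was 0.067 without control library 2 and 0.052 without ablated library 3. By limma on log2(TPM + 1) Vkorc1 and Ggcx had adjusted p = 0.10 and 0.15, a scale on which the median of all genes stood at 0.19. The reference annotation places Gm21974, which has no counts here, over Vkorc1 on the same strand.

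Of the other Gla proteins, 11 of 14 were in the table and 5 were tested, and 1 rose. Mgp, the matrix Gla protein that inhibits calcification of soft tissue, had 1454, 1440.1 and 1137 TPM in control libraries 1 to 3 and 2171, 2624 and 2892 TPM in ablated libraries 1 to 3. It rose by 0.72 ± 0.16 on the log2 scale (SE, edgeR adjusted p = 0.015), and its adjusted p was 0.056 without control library 3 and 0.074 without ablated library 3. Prrg2 and Prrg1, transmembrane Gla proteins, had log2 fold changes of −0.22 and 0.50 and did not pass. Mgp is also known from vascular mural cells, whose marker list was higher as given above, and its part in the Mgp result was not tested.

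Among the partners of Protein S in coagulation, 3 of 6 were tested and 1 rose. Thbd, thrombomodulin, which turns thrombin toward activation of protein C, the protease that Protein S assists, had 20.3, 19.9 and 31.3 TPM in control libraries 1 to 3 and 105.1, 100.5 and 90.2 TPM in ablated libraries 1 to 3. The groups were far apart, and the log2 fold change was 1.84 ± 0.20 (SE, edgeR adjusted p = 8.0e-05). It passed in all 15 other fits. Procr, the protein C receptor, had 4.58, 10.8 and 8.36 TPM against 17.7, 23.2 and 23.2 TPM, and a log2 fold change of 1.25 ± 0.41 that did not pass (edgeR adjusted p = 0.088). Tfpi, an inhibitor of the tissue factor pathway for which Protein S is a cofactor, had a log2 fold change of 0.06. Thbd and Procr are both expressed by vascular endothelium, whose summed markers were higher and whose Kdr was lower, as given above. The part of these cells in the Thbd result was not tested.

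Other bridges and receptors for phosphatidylserine held 2 falls and no rise among 14 tested genes, with a median log2 fold change of −0.27. The split was 2 higher and 1 lower with scaling by library totals alone, 1 higher and 2 lower without the filter on low counts, and 2 higher and 2 lower by DESeq2. Thbs1, a matricellular protein that links apoptotic cells to phagocytes, had 214.1, 289.7 and 300.8 TPM in control libraries 1 to 3 and 191.0, 179.0 and 191.5 TPM in ablated libraries 1 to 3. It fell by 0.73 ± 0.14 on the log2 scale (SE, edgeR adjusted p = 0.0074, and 0.052 without control library 2). Itgb5, the integrin subunit that pairs with Itgav in binding Mfge8, fell by 0.79 ± 0.21 (edgeR adjusted p = 0.034). Its adjusted p was 0.051 to 0.12 without each library other than ablated library 1, where it was 0.026. Neither gene passed by limma on log2(TPM + 1), with adjusted p = 0.20 for Thbs1 and 0.17 for Itgb5. Mfge8, a secreted bridge between phosphatidylserine and integrins, had 222.1, 226.2 and 188.7 TPM against 353.1, 333.8 and 316.4 TPM and a log2 fold change of 0.44 ± 0.14, which did not pass (edgeR adjusted p = 0.081). Lrp1, a large endocytic receptor, had a log2 fold change of 0.06.

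Of 9 tested genes that flip or hold phosphatidylserine, 0 passed the edgeR test, 3 had an unadjusted p under 0.05, and 3 passed by DESeq2. Their median log2 fold change was −0.09. Bsg and Nptn, partners of the Xkr8 scramblase, had log2 fold changes of −0.42 and 0.0058. Of 11 tested genes of the engulfment machinery downstream of the receptors, 1 rose, with a list median of 0.38. The share that passed was 9.09%, beside 8.48% over all genes tested. Elmo1, a scaffold that activates Rac together with Dock1, had 20.03, 22.2 and 21.2 TPM in controls and 37.8, 45.8 and 39.0 TPM in ablated libraries. It rose by 0.75 ± 0.18 (SE, edgeR adjusted p = 0.023), but its adjusted p was 0.054 to 0.080 without each of the 6 libraries in turn. Elmo2 and Rac1 had log2 fold changes of 0.41 and −0.08 and did not pass.

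TAM receptors are cleaved from the cell surface by metalloproteases, and 2 of 5 tested genes of this list rose, with a median log2 fold change of 0.65. Adam17, a protease that sheds Mertk and Axl, had 18.6, 28.4 and 25.2 TPM in control libraries 1 to 3 and 48.7, 46.2 and 44.4 TPM in ablated libraries 1 to 3. It rose by 0.73 ± 0.19 (SE, edgeR adjusted p = 0.036). Rhbdf1, an inactive rhomboid protein that brings Adam17 to the surface, had 49.8, 58.9 and 48.8 TPM in controls and 99.5, 97.7 and 92.1 TPM in ablated libraries. It rose by 0.65 ± 0.16 (edgeR adjusted p = 0.026). For both genes the groups were well apart. Without 1 library the adjusted p of Adam17 was 0.069 to 0.12, except 0.040 without control library 2. That of Rhbdf1 was 0.074 and 0.090 without control libraries 1 and 3 and 0.095 and 0.082 without ablated libraries 1 and 3. Adam17 overlaps Iah1 on the opposite strand over 311 bases, and Iah1 had 316 to 417 counts in controls and 137 to 331 in ablated libraries. Timp3, an inhibitor of Adam17, and Adam10, a related sheddase, had log2 fold changes of −0.34 and 0.36 and did not pass.

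Inside the cell, 1 of 17 tested genes of signal transduction and 1 of 12 tested feedback and nuclear regulators rose, with list medians of 0.20 and 0.30. The shares that passed were 5.88% and 8.33%, beside 8.48% over all genes tested. Cblb, a ubiquitin ligase that acts on TAM receptors in natural killer cells, had 5.54, 8.68 and 9.36 TPM in controls and 17.0, 16.7 and 18.3 TPM in ablated libraries. It rose by 0.90 ± 0.23 (SE, edgeR adjusted p = 0.033), with an adjusted p of 0.057 to 0.14 without each library other than control library 3, where it was 0.039. Socs3, a suppressor of cytokine signaling that TAM signaling induces in dendritic cells, had 151.3, 153.8 and 187.5 TPM in control libraries 1 to 3 and 328.3, 379.1 and 296.9 TPM in ablated libraries 1 to 3. It rose by 0.81 ± 0.13 (edgeR adjusted p = 0.0023) and passed in all 15 other fits. Shc1 and Akt2, which carry signals from receptor kinases, had log2 fold changes of −0.00 and 0.26 and did not pass. Twist2 and Nr1h2, the most abundant listed regulators that did not pass, had log2 fold changes of −0.35 and −0.33.

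**Figure D4:**
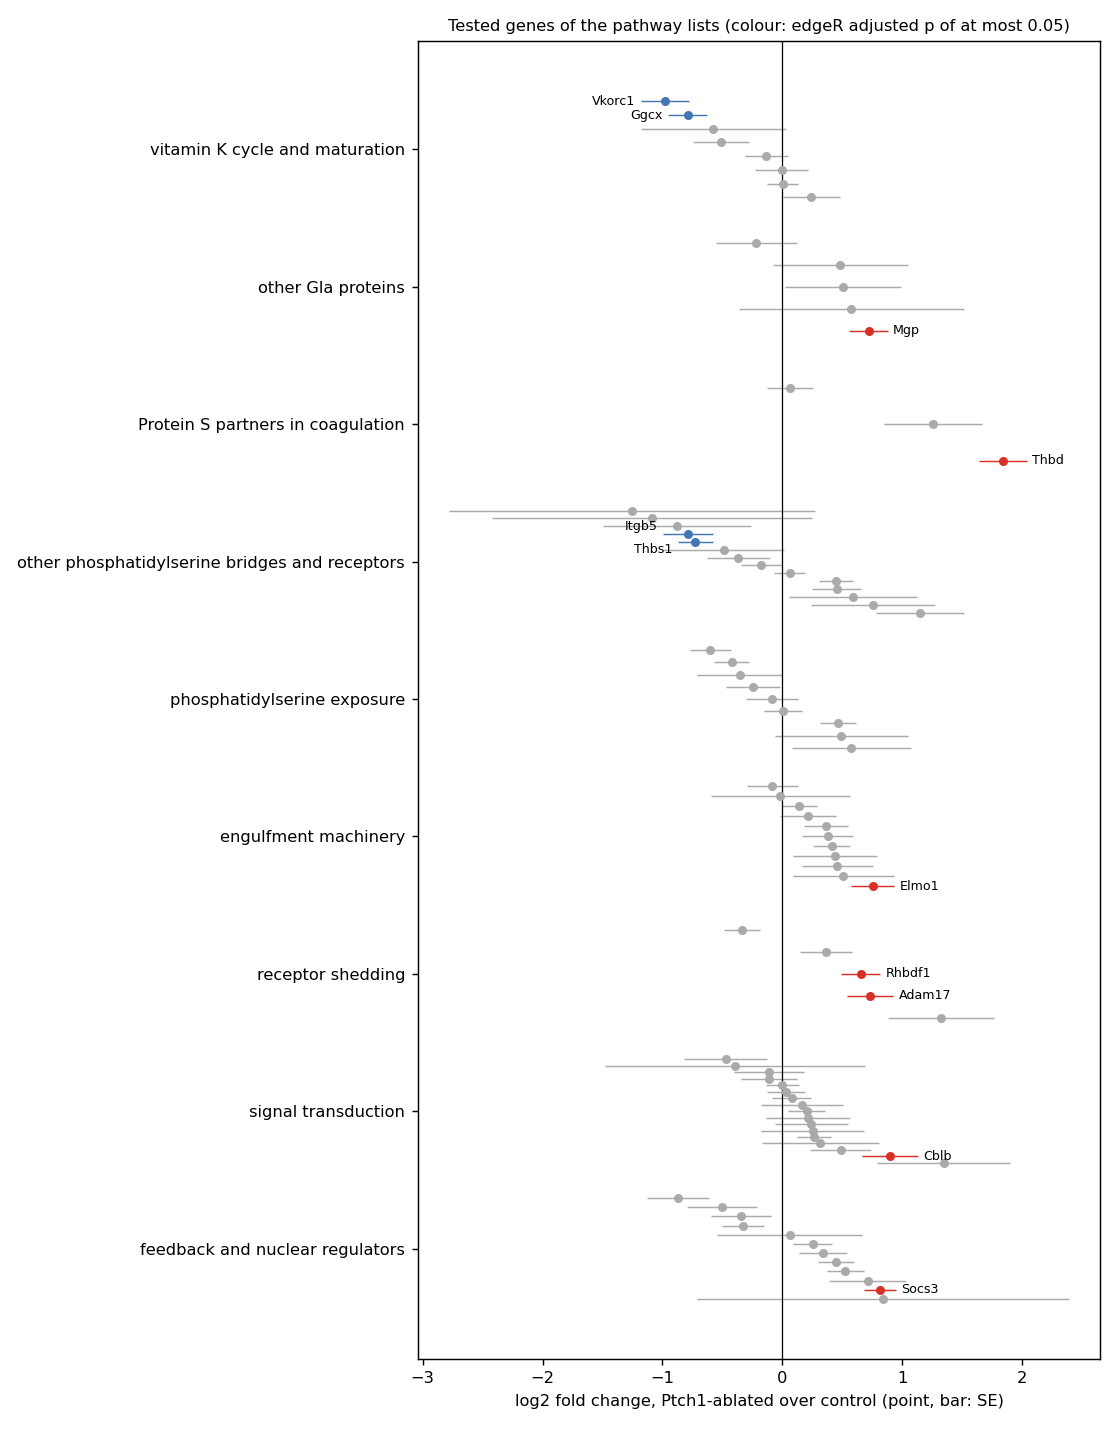
Log2 fold change (ablated over control, points) with its SE (bars) of the 84 tested genes of the 9 lists around the family; red and blue mark genes with an edgeR adjusted p of at most 0.05 that were higher or lower in ablated libraries. The 7 red points are Mgp, Thbd, Elmo1, Rhbdf1, Adam17, Cblb and Socs3 and the 4 blue points Vkorc1, Ggcx, Itgb5 and Thbs1.

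**Figure D5:**
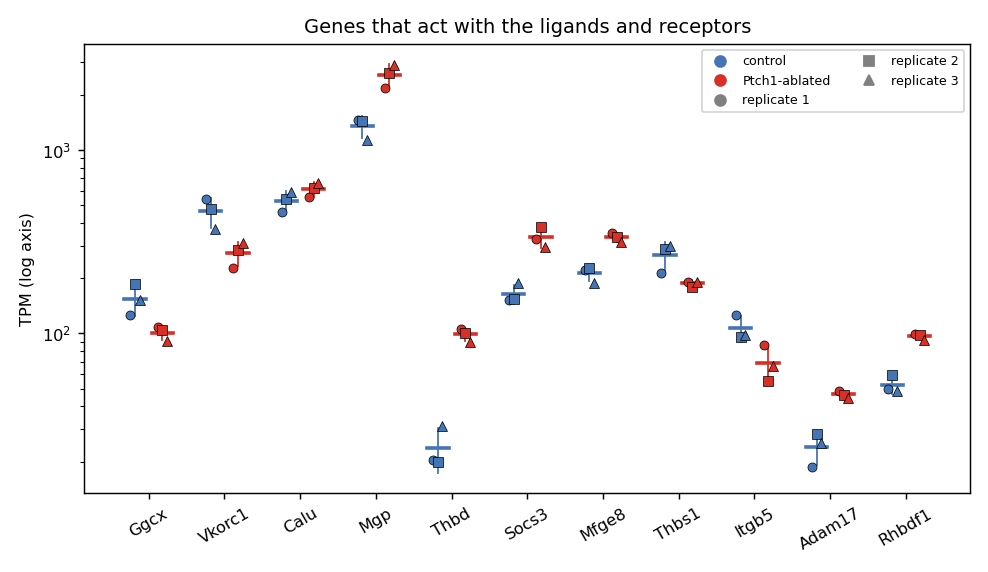
TPM (log axis) of 11 genes that act with the ligands and receptors in the 3 control and 3 ablated libraries; points are libraries and horizontal bars group means and vertical bars the SD. Vkorc1, Ggcx, Thbs1 and Itgb5 are lower and Mgp, Thbd, Socs3, Adam17 and Rhbdf1 higher in every ablated library, while Calu overlaps between the groups.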

How the data were processed

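RNA of sorted keratocytes was measured in 3 control and 3 Ptch1-ablated libraries, grouped by sample title. Per the labels, Trizol was used for extraction and an Illumina TruSeq kit for the libraries, while the study's methods describe ribosomal RNA depletion and a BGISEQ platform. The submitters' processing notes name Bowtie2 2.2.5, RSEM 1.2.12 and mm9. The annotation release and strandedness are not given in the sources used here, so overlapping genes are uncertain. The deposited table holds expected counts that the authors estimated with RSEM, of which 18.6% were not whole, and TPM, which the authors scaled by gene length and library. The authors' FPKM and group averages were not used.

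Expected counts were rounded and filtered with filterByExpr (13888 of 17606 genes), scaled by TMM and tested with edgeR 4.0.16 (quasi-likelihood F test, two-sided, group as the only term). P-values were adjusted over these genes by Benjamini-Hochberg, with a threshold of 0.05. Library totals were 20258439 to 24788063. The labels do not tie a library to an animal, so p-values measure the spread between these samples. The members and lists were chosen with earlier results of these data known. From each list the text names the genes that passed and up to 2 of the most abundant others, and for each member the 3 genes of most similar profile, except items that are not reported here. Alternatives were RLE, upper quartile and total scaling, no filter or a mean of 50 counts, DESeq2 1.42.0, limma 3.58.1 on log2(TPM + 1) and log2(TPM + 0.1), the replicate number as a block, each library left out, and a fold minimum of 2. The edgeR and DESeq2 tests were also run on simulated counts, and the outcome is not reported here.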

Additional observations from a re-analysis of the deposited data

How the results depend on the processing

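Of the 5 members, Gas6, Pros1, Tyro3 and Mertk kept their sign in all 15 other fits, and Axl in 13. Leaving out 1 library gave log2 fold changes from 4.01 to 4.20 for Gas6, 0.40 to 0.81 for Pros1, −0.30 to −0.10 for Axl, −0.53 to −0.08 for Mertk and 0.53 to 1.75 for Tyro3. By limma on log2(TPM + 0.1) Gas6 was at 4.34 and Axl at 0.027, and on log2(TPM + 1) Axl was also at 0.027, scales on which the median of all genes was 0.22 and 0.19. With the replicate number as a block Tyro3 was at 1.56, and 942 genes passed against 1178. Same-numbered libraries deviated with correlations of −0.03, −0.06 and 0.04, beside −0.04 to 0.07 for libraries of unlike number. No pairing by number was thus seen, which does not exclude one. Under the block 0 genes passed in engulfment (Elmo1 lost) and 0 in receptor shedding (Adam17 and Rhbdf1 lost). Over all genes 772 passed by limma on log2(TPM + 0.1) (553 higher, 219 lower), 1092 on log2(TPM + 1) (793 higher, 299 lower), 1736 by DESeq2, 763 with a fold of at least 2, and 778 to 1015 with 1 library left out, the lowest without control library 2. With a fold of at least 2, 0 genes passed in each list but Protein S partners, where Thbd did. Without 1 library 0 genes passed in engulfment, 0 to 1 in other Gla proteins, signal transduction and phosphatidylserine exposure, 0 to 2 in other bridges and in shedding, and 1 to 2 in the vitamin K cycle. By limma on log2(TPM + 1) 0 passed in the vitamin K cycle and other bridges and 2 each in Protein S partners, signal transduction and feedback, and on log2(TPM + 0.1) 0 in the vitamin K cycle, other Gla proteins, other bridges and signal transduction and 1 in shedding. DESeq2 passed 4 in other bridges (2 higher, 2 lower), 4 in feedback (3 higher, 1 lower) and 3 in exposure (1 higher, 2 lower). Total scaling passed 2 in engulfment, 3 in feedback, 2 in Protein S partners and 1 in exposure, upper quartile scaling 2 in feedback and 1 in exposure, and no filter and a mean of 50 counts 1 each in exposure. The causes were not tested. With 3 libraries a group, the sizes of the Tyro3 and Pros1 differences depend on control libraries 1 and 3. That of Pros1 also depends on ablated library 3 (log2 fold change 0.46 without it). The 27 counts of Tyro3 in control library 1 limit its precision.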
